A study of Sus scrofa with 12 samples.

Results

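Genes of the major histocompatibility complex (MHC, called SLA in swine) and of antigen presentation were examined in the jejunum of piglets by RNA-seq. The genes were chosen by name from a list of 10: B2M, TAP1 and TAP2 for class I, and SLA-DRA, SLA-DQA1, SLA-DQB1, SLA-DMA, SLA-DMB, CD74 and CIITA for class II. The deposited table carried 7 of these 10 names among 17049 gene names in all, 3 of class I and 4 of class II. The names SLA-DQA1, SLA-DMA and CD74 were not matched and have no value here. SLA-DMB and CIITA each had more than 1 row, and rows of the same name were summed.

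The study sampled jejunum from 4 groups of 3 piglets, described as biological replicates. Sows had been bred with pooled Landrace semen according to the sample records, which differ from the breed and housing that the study's methods describe. Control sows received a corn and soybean meal diet, and the other sows received the same diet with 300 mg/kg of resveratrol, a plant polyphenol, from early gestation until the end of lactation. W_Con and W_Res were piglets of control and resveratrol sows taken on the day of weaning at 21 days of age, and PW_Con and PW_Res were piglets of the same diets taken at 28 days of age, 1 week after the sow was removed. The piglets themselves were not described as receiving resveratrol, so the diet comparison is one of maternal diet.

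MHC class I molecules display peptides made inside the cell to cytotoxic T cells and are found on nearly all nucleated cells. They consist of a heavy chain and beta-2-microglobulin, and the TAP transporter moves peptides from the cytosol into the endoplasmic reticulum where they are loaded. MHC class II molecules display peptides from engulfed material to helper T cells, mainly on dendritic cells, macrophages and B cells, and the small intestinal epithelium can also express them. Interferon gamma raises the genes of both pathways, class II through the co-activator CIITA.

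The values were FPKM, fragments counted per length of exon and per mapped reads. The table gives no counts, so the depth behind each value is unknown from it. The summed FPKM of a library ranged from 313171 to 334469. Pearson's r of log2(FPKM + 1) between libraries of the same group was 0.881 to 0.961 across genes, which are not independent replicates. EPCAM, an epithelial marker, was present at 57.4 to 101 FPKM in all 12 libraries. FABP6, a bile acid binding protein known from the ileum, ranged from 1.70 to 24110 FPKM. The libraries labelled W_Res replicate 1 and W_Res replicate 2 stood apart by summed smooth muscle markers, at 1142 and 2607 FPKM against 127 to 528 FPKM in the other 10 libraries. The library labelled PW_Con replicate 2 stood apart by B cell genes, with MS4A1 at 8.10 and CR2 at 18.7 FPKM. In the other 5 libraries of 28 days, these 2 genes were at most 0.115 and 0.231 FPKM. For each comparison that involves these libraries, the class values are also given without them, and other pathway genes where their calls changed.

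B2M encodes beta-2-microglobulin, the invariant light chain of class I molecules. It was the most abundant of the 7 genes, with a mean of 2037 FPKM over the 12 libraries, a level above that of 99.9% of 12886 genes. In W_Con it stood at 2562, 2250 and 2297 FPKM in replicates 1, 2 and 3, and in PW_Con at 2474, 2465 and 2005 FPKM. These 6 control libraries lay close together. In W_Res it was 1315, 878 and 2767 FPKM, and in PW_Res it was 2602, 1584 and 1243 FPKM. The resveratrol libraries thus covered both the highest and the lowest values of the series, and their ranges overlapped those of the controls. RefSeq lists 2 entries under the symbol B2M in the pig assembly Sscrofa11.1, so reads may have been shared with a copy.

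TAP1 encodes 1 of the 2 chains of the peptide transporter. It was 85.0, 63.8 and 95.5 FPKM in W_Con and 86.2, 104 and 61.7 FPKM in PW_Con. In W_Res it was 43.6, 35.6 and 81.8 FPKM, and in PW_Res 71.8, 68.4 and 56.3 FPKM. Replicates 1 and 2 of W_Res were below all other libraries. TAP2, the partner chain, was 68.2, 56.5 and 71.0 FPKM in W_Con and 80.1, 67.6 and 64.7 FPKM in PW_Con. It was 42.4, 39.1 and 59.4 FPKM in W_Res and 79.8, 64.4 and 61.6 FPKM in PW_Res. All 3 W_Res values were below all 3 PW_Res values. TAP2 was the steadiest of the 7 genes, with a highest level 2.05 times its lowest, against a median of 3.28 times over all genes.

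SLA-DRA encodes the alpha chain of the class II molecule DR. It was the most abundant class II gene, with a mean of 763 FPKM. It stood at 917, 1033 and 559 FPKM in W_Con and at 989, 1150 and 415 FPKM in PW_Con. In W_Res it was 567, 1561 and 507 FPKM, and in PW_Res it was 427, 514 and 520 FPKM. W_Res replicate 2 had the highest level of the series, while the 3 PW_Res libraries lay close together near the bottom of the range.

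SLA-DQB1 encodes a beta chain of the class II molecule DQ. It was 308, 291 and 109 FPKM in W_Con and 358, 489 and 261 FPKM in PW_Con. In W_Res it was 193, 401 and 126 FPKM, and in PW_Res it was 211, 173 and 116 FPKM. Every PW_Con library was above every PW_Res library. It was the most variable of the 7 genes, with a highest level 4.48 times its lowest. The neighbouring row SLA-DQB2 is a close relative at 0.393 to 4.96 FPKM, and how the authors divided reads between such copies is not given in the sources used here.

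SLA-DMB encodes a chain of the DM molecule, which exchanges peptides on class II molecules in endosomes. It was 37.5, 50.3 and 30.0 FPKM in W_Con and 37.4, 98.7 and 42.7 FPKM in PW_Con. In W_Res it was 39.6, 86.2 and 41.5 FPKM, and in PW_Res it was 42.7, 47.9 and 30.0 FPKM. The highest 2 values were those of PW_Con replicate 2 and W_Res replicate 2.

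CIITA encodes the class II transactivator, the master regulator of class II transcription. It was the lowest of the 7 genes, with a mean of 2.75 FPKM, a level above that of 34.1% of genes. It was 3.56, 3.40 and 1.35 FPKM in W_Con and 3.64, 4.32 and 2.55 FPKM in PW_Con. In W_Res it was 3.00, 3.81 and 2.18 FPKM, and in PW_Res it was 1.79, 1.53 and 1.90 FPKM. All 3 PW_Res libraries were below all 3 libraries of PW_Con and of W_Res. In W_Res replicate 1, 1.29 of the 3.00 FPKM came from a second row of that name, which was at or below 0.0795 FPKM in the other libraries. Without that row, W_Res replicate 1 was at 1.71 FPKM and overlapped the PW_Res range.

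**Figure D1:**
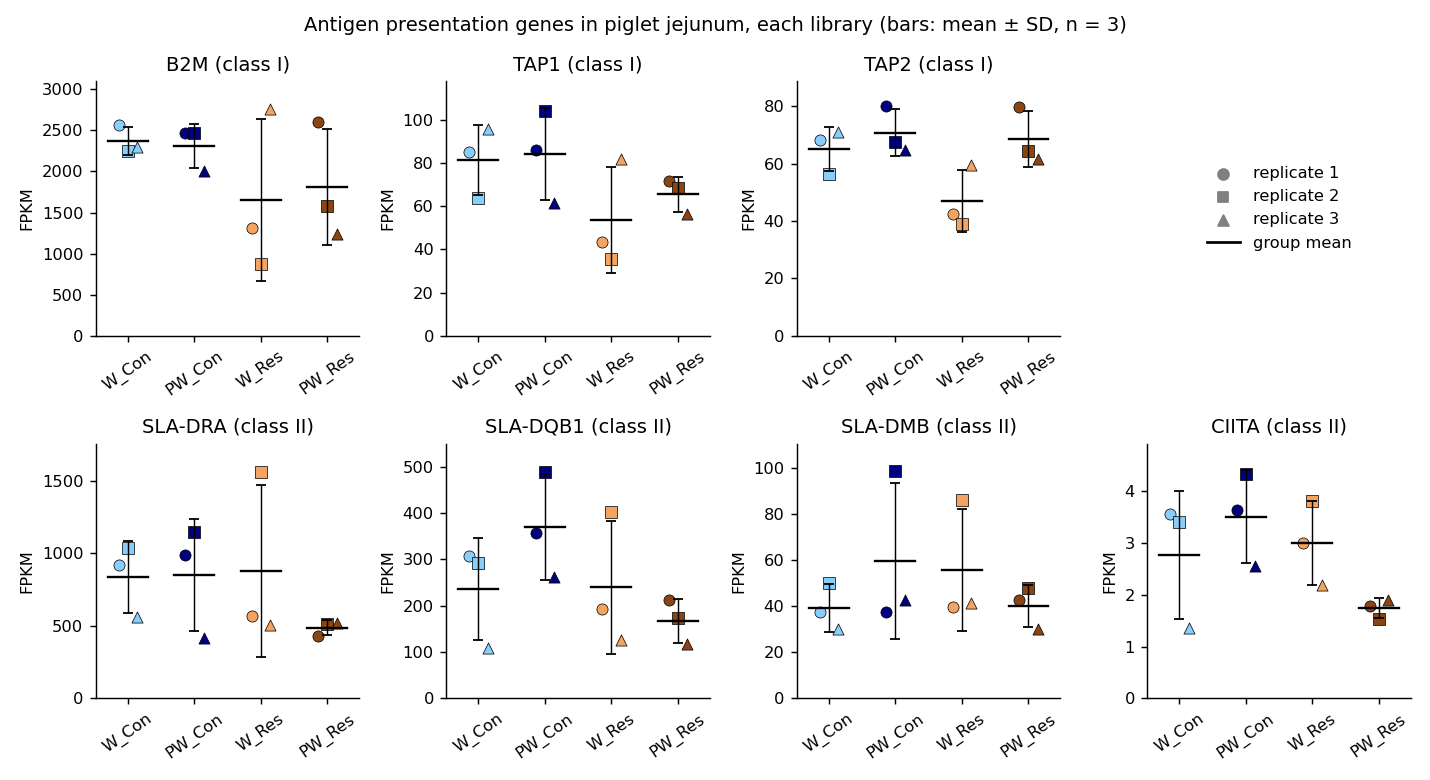
FPKM of the 3 class I genes (top) and the 4 class II genes (bottom) in each of the 12 libraries, by group, with replicate numbers as point shapes, the group mean as a horizontal line and the SD as a bar (n = 3). SLA-DQB1 and CIITA in PW_Res lie below all PW_Con points, at 116 to 211 FPKM against 261 to 489 FPKM and at 1.53 to 1.90 FPKM against 2.55 to 4.32 FPKM.

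In order of mean FPKM, which is scaled per length of exon, the genes ran B2M, SLA-DRA, SLA-DQB1, TAP1, TAP2, SLA-DMB and CIITA. The ranges over the 12 libraries of neighbours in this order overlapped for B2M and SLA-DRA, for SLA-DRA and SLA-DQB1, for TAP1 and TAP2, and for TAP2 and SLA-DMB. SLA-DQB1 was at or above 109 FPKM in every library and TAP1 at or below 104 FPKM, and CIITA at or below 4.32 FPKM lay well under the lowest SLA-DMB value of 30.0 FPKM.

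Class I and class II were then compared with each other within libraries. The mean log2(FPKM + 1) of the 3 class I genes and that of the 4 class II genes were taken as the class levels. The class II level minus the class I level was -1.56, -1.16 and -2.45 in W_Con and -1.54, -0.99 and -1.66 in PW_Con. It was -1.07, 0.23 and -2.14 in W_Res and -2.11, -1.74 and -1.77 in PW_Res. W_Res replicate 2 was the only library in which the class II level exceeded the class I level, and all 3 PW_Res libraries were below all 3 PW_Con libraries. W_Res replicate 2 also had the highest summed dendritic cell and macrophage markers, at 53.8 FPKM against 22.5 to 43.5 FPKM elsewhere. Its MS4A1 and CR2 were at 0.986 and 2.33 FPKM, second to PW_Con replicate 2. The part of these cells in its class levels was not tested. The group means were -1.72 ± 0.66 in W_Con, -1.40 ± 0.36 in PW_Con, -0.996 ± 1.19 in W_Res and -1.87 ± 0.20 in PW_Res (SD, n = 3).

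Genes of the same class varied together over the 12 libraries. Pearson's r of log2(FPKM + 1) was 0.77 to 0.87 for the 3 pairs within class I and 0.61 to 0.87 for the 6 pairs within class II. Between the classes, r was -0.36 to 0.01 over 12 pairs and was negative in 11 of them. The class levels had an r of -0.16 over the 12 libraries and of 0.32 without W_Res replicate 2, so the sign rested on that library. The class II level had an r of 0.59 with the log2 sum of smooth muscle markers and of 0.41 with that of T cell markers. With the log2 sum of B cell markers, most of it CD79A, the class II level had an r of 0.54, and of 0.42 without W_Res replicate 2. The class I level had an r of -0.35 with that sum. These values are descriptions, since the libraries share groups and a common scaling.

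**Figure D2:**
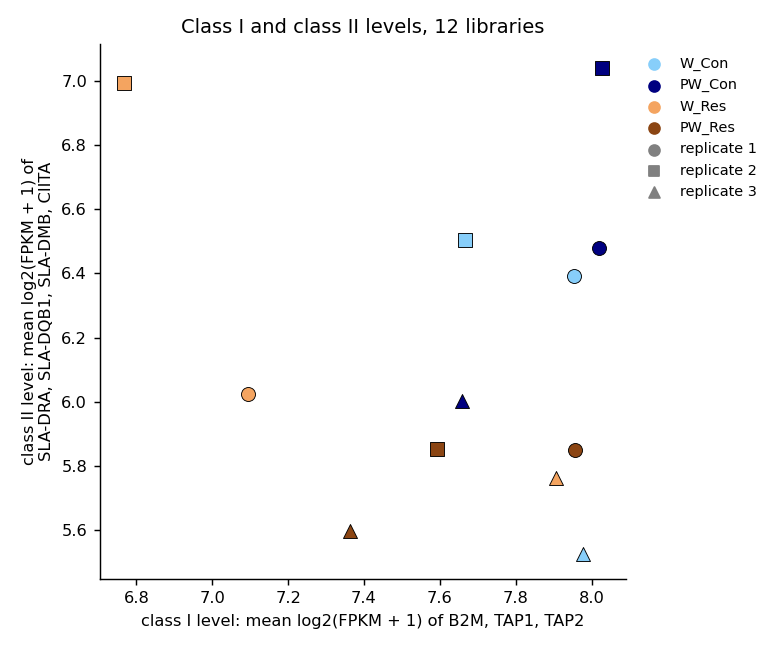
Class I level (x axis) against class II level (y axis), each the mean log2(FPKM + 1) of its genes, with 1 point per library, colours for groups and shapes for replicate numbers. W_Res replicate 2 has the lowest class I level (6.77) and nearly the highest class II level (6.99), and the PW_Res libraries have class II levels of 5.60 to 5.85.

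The first comparison was that of 28-day with 21-day control piglets, which addresses the response to weaning. Weaned piglets were 7 days older than sucking piglets in both diets, so weaning and age cannot be told apart in any value called a weaning effect here. None of the 7 genes passed the study's standard in PW_Con against W_Con, an unadjusted P under 0.05 in limma with an absolute log2 fold change above 1, which 3.31% of 12611 genes passed. None of the 7 had an unadjusted P under 0.05, against 17.7% of genes. The class I genes had log2 fold changes of -0.04 to 0.12, and their 95% intervals together spanned -0.55 to 0.61. The class II genes had log2 fold changes of -0.05 to 0.74 with a median of 0.39, beside a median of -0.02 over all genes, and 3 of the 4 were above 0, as were 48.2% of all genes. Their intervals spanned -1.05 to 1.75, the upper bound being that of SLA-DQB1. Without PW_Con replicate 2 the class I median went from 0.03 to -0.09, and TAP1 turned to -0.14. The class II median was then 0.11, with SLA-DQB1 at 0.51, SLA-DMB at 0.06 and SLA-DRA at -0.34. Without W_Con replicate 3, SLA-DQB1 was at 0.26 and CIITA turned to -0.01.

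Among the other genes of the pathway in control litters, 2 of 14 class I genes tested had a P under 0.05 and were higher at 28 days, and 1 was lower. The higher ones were SLA-1 and SLA-8, class I heavy chains, with log2 fold changes of 0.56 and 0.63, and the lower one was ERAP1, an aminopeptidase that trims peptides, at -0.70. Of 16 other class II genes, 2 were higher and 1 lower at that level. SLA-DRB1, a DR beta chain, and IFI30, a thiol reductase of the endosome, had log2 fold changes of 0.65 and 0.63, and SLA-DQB2 had one of -0.97. Of 11 interferon gamma signalling genes, 4 were lower at that level. They were IFNG itself at -0.88, GBP1, an interferon-induced GTPase, at -0.997, JAK1, a kinase of the interferon receptors, at -1.46 and IDO1, an enzyme of tryptophan breakdown, at -0.63. JAK1 was 19.3 to 31.4 FPKM in W_Con and 5.47 to 11.9 FPKM in PW_Con, and it met the standard. CD274, an inhibitory ligand of T cells, also met it, at -1.24, as the only 1 of 6 costimulation genes with a P under 0.05. Over all genes, 9.35% were higher and 8.38% lower at a P under 0.05. The adjusted p of these genes in limma was 0.117 to 0.270. Without PW_Con replicate 2, all 6 class I and class II pathway genes passed above a P of 0.05, to 0.0530 to 0.133, at log2 fold changes of 0.48 for SLA-1, 0.53 for SLA-8, -0.56 for ERAP1, 0.63 for SLA-DRB1, 0.58 for IFI30 and -0.89 for SLA-DQB2. IDO1 did so too, at -0.52, while IFNG, GBP1, JAK1 and CD274 kept it. Some cell type markers also had a P under 0.05. Of 8 T cell genes, CD3D and CD3E were lower, at -0.63 and -0.74, and CD5 higher, at 0.56. Of 7 dendritic cell and macrophage genes, CCR7 and BATF3 were higher, at 1.49 and 0.67, and ITGAM lower, at -0.78. Of 7 epithelial genes 4 were above 0 and 3 below, and the keratins KRT8 and KRT19 had such a P, at 0.86 and 1.29. Of 6 villus enterocyte genes 2 were above 0 and 4 below, and FABP2 had such a P, at -2.20. All 6 B cell genes tested were above 0, with a median of 0.94, and CD79B had a P under 0.05, at 2.05. Of 5 germinal centre and follicle genes 3 were above 0 and 2 below, and CXCL13, a chemokine of lymphoid follicles, had such a P, at 1.96. CD79B and CXCL13 kept such a P without PW_Con replicate 2, at 0.93 and 1.69. Only 4 B cell genes were then tested, 3 above 0 and BLK at -0.23, with a median of 0.35. The part of these cell types was not tested.

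In piglets of resveratrol sows, the class I genes lay higher and the class II genes lower at 28 days than at 21 days, with none of the 7 past a P of 0.05. The standard was met by 4.75% of 13013 genes and a P under 0.05 by 13.3%. The class I log2 fold changes were 0.23 to 0.55 (median 0.37), with all 3 above 0. The class II log2 fold changes were -0.66 to -0.40 (median -0.46), with all 4 below 0, beside a median of -0.16 over all genes, 65.9% of which were below 0. In a linear model of the Ballgown type, which adds a library-size covariate, B2M and TAP1 were below 0 and SLA-DRA, SLA-DQB1 and SLA-DMB above 0, and without W_Res replicate 2 B2M was at -0.15 and SLA-DQB1 at 0.06. Without W_Res replicate 2 the medians were 0.12 for class I and -0.09 for class II, against 0.37 and -0.46 with it. Without W_Res replicate 1 they were 0.27 for class I and -0.55 for class II, and all 7 genes kept their direction. TAP2 was higher in all 3 PW_Res libraries than in all 3 W_Res libraries, an absence of overlap in that direction shared by 3.93% of genes. CIITA was lower in all 3, as were 17.9% of genes, but its groups overlapped when only its main row was used, with a log2 fold change of -0.34. The lowest P was 0.0523 in class I and 0.0589 in class II (limma). Markers of other cell types differed in the same comparison. All 4 smooth muscle genes tested met the standard and were lower in PW_Res, with a median of -2.32, and both endothelial genes, PECAM1 and KDR, had a P under 0.05 and were lower. Of 7 epithelial genes, 6 were higher, 3 of them with such a P, and of 7 dendritic cell and macrophage genes 4 were below 0, FLT3 and BATF3 with such a P, and 3 above, up to 0.60 for CCR7. Of 5 germinal centre and follicle genes, CXCL13 and S1PR2 met the standard and were lower, at -1.39 and -1.01, and the other 3 were above 0. The P values of CXCL13 and S1PR2 were 0.158 and 0.0633 without W_Res replicate 2, and that of CXCL13 was 0.154 without replicate 1 (limma). Summed smooth muscle markers were 528 to 2607 FPKM in W_Res and 169 to 484 FPKM in PW_Res. Without W_Res replicate 1 or 2, 2 of the 4 smooth muscle genes kept a P under 0.05. Without replicate 2 the P values of FLT3 and BATF3 were 0.0675 and 0.139 (limma). Of the epithelial genes, only KRT8 then kept a P under 0.05, with 0.0865 for KRT19 and 0.0578 for KRT20. The epithelial median went from 0.85 to 0.43. The part of these cell types in the class values was not tested.

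Of 14 other class I pathway genes tested in resveratrol litters, 1 had an unadjusted P under 0.05. It was PSMB9, a subunit of the immunoproteasome that cuts peptides for class I, with a log2 fold change of 0.50. Of 16 other class II genes, 1 had such a P, CTSS, a protease that processes the class II invariant chain, at -0.57. Of 5 costimulation genes, 0 had one. Among all genes, 2.54% were higher and 10.8% lower with such a P. Of 10 interferon gamma signalling genes, SOCS1, a feedback inhibitor of the signal, was higher with such a P, at 0.83. IRF1 and CXCL9 were lower with one, at -0.88 and -0.85. Over these lists together, the share with such a P was not above the 13.3% of all genes. The 5 named genes had an adjusted p of 0.340 to 0.370 in limma, and the change of SOCS1 turned sign in the Ballgown-type model. Without W_Res replicate 1 the P of CXCL9 was 0.0518, while 4 class I pathway genes were higher and 3 class II pathway genes lower with a P under 0.05. Without W_Res replicate 2, 4 interferon gamma signalling genes were lower with one, and the P values of PSMB9 and SOCS1 were 0.106 and 0.0640. Without W_Res replicate 3, IRF1 was at -0.50 and CXCL9 at -0.59, no gene of that list was lower with a P under 0.05, and the median of the list went from -0.39 to -0.05. Over the 13 alternative settings, the P stayed under 0.05 in 6 to 8 for each of PSMB9, CTSS, SOCS1, IRF1 and CXCL9.

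The weaning effect was then compared between the litters, as PW_Res minus W_Res less PW_Con minus W_Con, in 1 fit of 12 libraries. The 3 class I genes had differences of 0.27 to 0.43 on the log2 scale and the 4 class II genes differences of -1.13 to -0.60. None of the 7 had a P under 0.05, against 13.7% of 12886 genes, and 7.76% of genes met the standard. The lowest P of a class II gene was 0.0577, that of CIITA. The median of the class II genes was -0.85 and that of class I 0.33, beside a median over all genes of -0.15, with 60.9% of genes below 0. The widest 95% interval, that of SLA-DQB1, ran from -2.62 to 0.35. The class II differences were -0.91 to -0.32 without PW_Con replicate 2, -1.21 to -0.81 without W_Res replicate 1 and -0.68 to -0.09 without W_Res replicate 2, where B2M turned to -0.11. The class I median was 0.40, 0.23 and 0.09 without these libraries in turn. In the Ballgown-type model SLA-DRA and SLA-DQB1 turned to 0.58 and 0.65, SLA-DMB and CIITA were at -0.07 and -0.05, and B2M and TAP1 turned to -0.06 and -0.22, so the direction was not shared within either class there. Cell type markers differed in the same contrast. Of 4 smooth muscle genes 3 met the standard, with a median of -2.79. CD79B and CD22 of 6 B cell genes also met it, at -2.33 and -1.34, with a median of -1.37. The standard was also met by the follicle genes CXCL13 and S1PR2, at -3.35 and -1.86, by BATF3 at -1.41 and by the epithelial keratin KRT20 at 1.17. Their lists were divided. Of 5 germinal centre and follicle genes 3 were below 0 and 2 above. Of 7 dendritic cell and macrophage genes 5 were below 0 and 2 above, and of 7 epithelial genes 3 below and 4 above. Without PW_Con replicate 2, 4 B cell genes were tested, with a median of -0.67. CD79B was then at -1.21, CD22 at -0.91, inside the fold limit, and BLK at 0.36. Without W_Res replicate 2 the P of CD79B was 0.0869 (limma). Without any 1 of these 3 libraries, 2 smooth muscle genes met the standard. The part of these cell types was not tested. This contrast uses the same libraries as the comparisons above and below, so it does not add separate evidence.

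**Figure D3:**
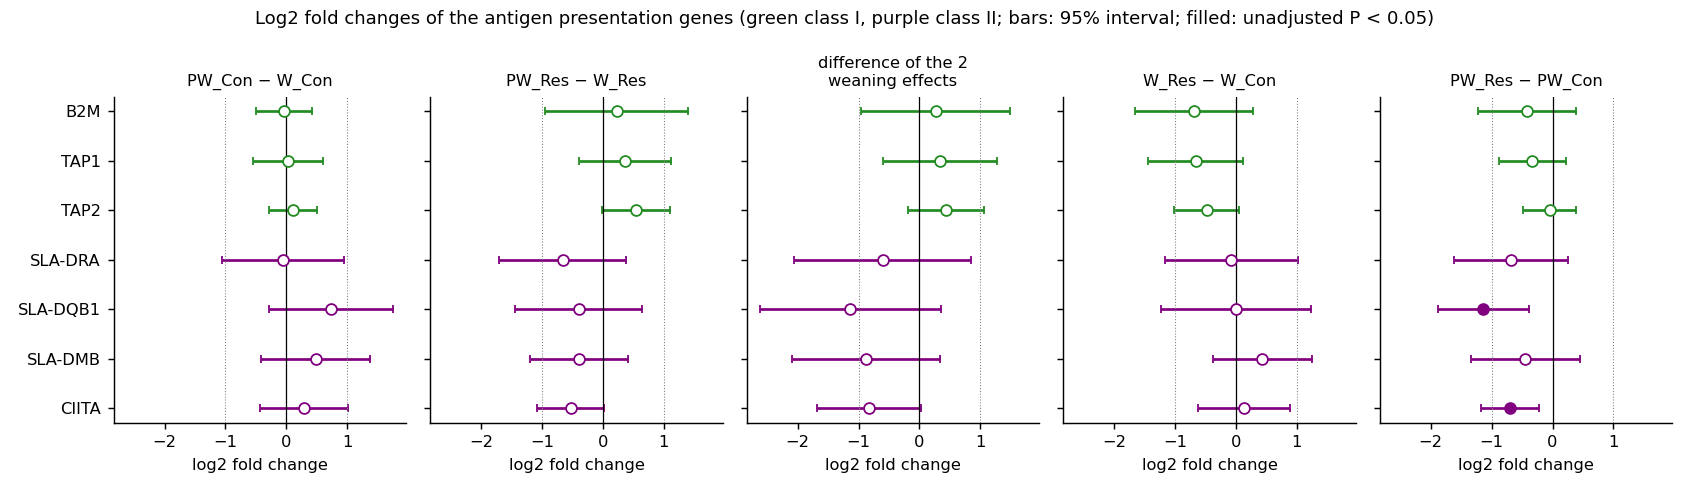
Log2 fold changes of the 7 genes in the 5 comparisons, on the log2(FPKM + 1) scale, with 95% intervals from limma as bars, class I in green and class II in purple, and filled points for an unadjusted P under 0.05. Only SLA-DQB1 (-1.14) and CIITA (-0.70) in PW_Res against PW_Con are filled.

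The comparison of resveratrol with control litters at 21 days addresses maternal diet before weaning. The 3 class I genes all lay lower in W_Res, with log2 fold changes of -0.68 to -0.48 (median -0.66), while the class II genes had log2 fold changes of -0.08 to 0.43 (median 0.06). All genes had a median of 0.09, and 42.1% of them were below 0. None of the 7 met the standard, which 4.47% of 13186 genes met, and none had a P under 0.05, against 13.3%. The class I direction was below 0 in all 13 alternative settings tried, but its size rested on single libraries. Without W_Res replicate 3, the values of B2M and TAP1 were -1.14 and -1.01 (unadjusted P of 0.00520 and 0.00526, adjusted p of 0.224 in limma). Without W_Res replicate 2 they were -0.31 and -0.42, and without W_Res replicate 1 they were -0.60 and -0.56. The class II median was -0.24 without W_Res replicate 2 and 0.13 without W_Res replicate 1. In the Ballgown-type model the class I genes were at -0.26 to -0.17, and SLA-DRA, SLA-DQB1, SLA-DMB and CIITA were at -1.12, -1.27, -0.23 and -0.48. The class I level had an r of -0.65 with the summed smooth muscle markers on a log2 scale over the 12 libraries and of 0.26 over the 10 libraries without W_Res replicates 1 and 2. All 4 smooth muscle genes were higher in W_Res, with a median of 2.45 and 3 that met the standard. Of 7 epithelial genes 5 were below 0, KRT20 and CDH17 with a P under 0.05, at -0.90 and -0.97. Without W_Res replicate 1 or 2, only 1 smooth muscle gene, DES, met the standard. Without W_Res replicate 2, CDH17 was at -0.48 with a P of 0.0866 (limma), and the epithelial median went from -0.18 to -0.04. The part of tissue composition in the class I values was not tested. In bulk tissue, fewer cells of a type and less RNA per cell cannot be told apart.

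Other genes on the class I side were divided in W_Res, with 8 of 14 tested below 0 and 6 above. A P under 0.05 was reached by 3, all lower, against 4.40% of all genes lower at that level. ERAP1 was 44.1 to 60.3 FPKM in W_Con and 16.1 to 32.8 FPKM in W_Res, a log2 fold change of -1.13 (SE 0.29, adjusted p = 0.344 in limma). PSMB9 fell by 0.63, and PSME2, a proteasome activator subunit, fell by 0.70, on the log2 scale. Of 16 other class II genes, 1 passed, SLA-DQB2, with a log2 fold change of -1.27 at levels of 0.403 to 4.96 FPKM. Without W_Res replicate 1, 7 class I pathway genes were lower and 1 higher with a P under 0.05, and without W_Res replicate 2 only ERAP1 was lower with one, at -0.86. SLA-DQB2 was at -1.13 and -1.26 without these libraries.

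Interferon gamma signalling genes were lower in W_Res than in W_Con for 10 of 11 tested, and 4 of these had a P under 0.05, against 42.1% and 4.40% of all genes. GBP1 was 291 to 521 FPKM in W_Con and 55.1 to 163 FPKM in W_Res, a log2 fold change of -2.13 (SE 0.42, adjusted p = 0.311 in limma). IFNG, the cytokine, was 2.48 to 4.27 FPKM in W_Con and 0.168 to 1.43 FPKM in W_Res. JAK1 and IDO1 completed the 4 genes, and all 4 were lower without overlap of the groups, as were 7.18% of genes. The count was 3 to 6 without single libraries and 0 in the Ballgown-type model. GBP1 was at -1.80 and -2.01, and IFNG at -1.27 and -1.18, without W_Res replicates 1 and 2. IDO1 was at -0.69 without W_Res replicate 2, with a P of 0.0576 (limma). Of the 6 costimulation genes, CD86 and CD274 were lower at a P under 0.05, at -0.72 and -2.07. Without W_Res replicate 1 or 2, CD86 was at -0.62 and -0.78, with P values of 0.0970 and 0.0540. Of 8 T cell markers, 6 had a P under 0.05 and were lower, 4 of 8 without W_Res replicate 1 or 2. The other 2, CD4 and CD5, were above 0, up to 0.31. The summed level of the 8 was 119 to 161 FPKM in W_Con and 39.4 to 69.2 FPKM in W_Res. The part of T cell number in the class I values was not tested. Over the 12 libraries the class I level had an r of 0.63 with the log2 sum of T cell markers.

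The comparison at 28 days addresses maternal diet after weaning and was the only one in which any of the 7 genes passed. SLA-DQB1, with 116 to 211 FPKM in PW_Res and 261 to 489 FPKM in PW_Con, had a log2 fold change of -1.14 (SE 0.32, unadjusted P = 0.00874, adjusted p = 0.394 in limma). Of the 7 genes it alone met the standard, which 1.81% of 12380 genes met. CIITA had a log2 fold change of -0.70 (SE 0.21, unadjusted P = 0.0108, adjusted p = 0.394 in limma), inside the fold limit. An unadjusted P under 0.05 was thus reached by 2 of 7 genes, both lower, against 6.77% of all genes lower at that level. Both had groups without overlap, as did 17.3% of genes, for which the exact two-sided permutation test gives its smallest possible p of 0.1 with 3 against 3. Neither held after adjustment over all genes. In the Ballgown-type model neither kept an unadjusted P under 0.05, and SLA-DQB1 was at -0.81, inside the fold limit.

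All 4 class II genes lay lower in PW_Res, with a median of -0.69 beside -0.07 over all genes, 58.8% of which were below 0. SLA-DRA was at 427 to 520 FPKM in PW_Res and at 415 to 1150 FPKM in PW_Con, and its 95% interval ran from -1.62 to 0.25. SLA-DMB was at 30.0 to 47.9 FPKM and at 37.4 to 98.7 FPKM, and its interval ran from -1.34 to 0.45. Without PW_Con replicate 2 the class II median was -0.48, with SLA-DRA at -0.40 and SLA-DMB at -0.02. The class I genes had log2 fold changes of -0.42 to -0.05 (median -0.33), and none had a P under 0.05. Their intervals spanned -1.22 to 0.39, so the data did not show whether class I differed. Their median was -0.16 without PW_Con replicate 2. TAP2, the gene nearest to 0, turned above 0 in 4 of the 13 alternative settings, up to 0.22 in the Ballgown-type model, where B2M also turned to 0.22. The difference between the classes in this comparison was not tested.

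The value of SLA-DQB1 depended on single libraries. Without PW_Con replicate 2, the library with high MS4A1 and CR2, it was -0.91, and without PW_Res replicate 3 it was -0.90, both inside the fold limit with unadjusted P values of 0.0338 and 0.0326. Without PW_Con replicate 3 it was -1.36, and SLA-DRA then also met the standard at -1.13. The 2 other PW_Con libraries, with MS4A1 and CR2 at most 0.115 and 0.231 FPKM, had SLA-DQB1 at 358 and 261 FPKM, above all 3 PW_Res libraries. Their summed B cell genes were 168 and 210 FPKM, of which CD79A made up 160 and 201 FPKM. FABP6 also differed within the groups of 28 days, at 6518 to 9621 FPKM in PW_Con and at 24110, 1.70 and 4.81 FPKM in PW_Res replicates 1, 2 and 3. PW_Res replicate 1, with high FABP6, had SLA-DQB1 at 211 and CIITA at 1.79 FPKM, below every PW_Con library. The part of gut position and of B cells in these values was not tested. CIITA kept an unadjusted P under 0.05 without each of the 6 libraries in turn, at log2 fold changes of -0.86 to -0.57.

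Some markers of antigen-presenting cells had a P under 0.05 in the same comparison. Of the dendritic cell and macrophage list, 8 of 14 names were matched, and their summed level was 34.0 to 43.1 FPKM in PW_Con and 22.5 to 24.5 FPKM in PW_Res. Of 7 tested, 5 were below 0 in PW_Res and 3 of these had a P under 0.05, against 58.8% and 6.77% of all genes. These were AIF1, a macrophage protein, at -0.67, BATF3, a dendritic cell transcription factor, at -0.99, and CCR7, a homing receptor of mature dendritic cells and T cells, at -1.04. The 2 genes above 0 were ITGAM, a macrophage integrin, at 0.16 and XCR1, a dendritic cell receptor, at 0.25. CD163, a macrophage receptor, was at or below 0.269 FPKM in these 6 libraries. The B cell markers had a median log2 fold change of -1.09, with all 6 tested below 0 and 1 of them, CD22, past a P of 0.05. With PW_Con replicate 2 left out, MS4A1 and CR2 were too low to be tested and the other 4 had a median of -0.19, with CD79A at -0.01, BLK at 0.07 and CD22 at -0.69. The summed FPKM of the B cell markers was 168 to 283 in PW_Con and 162 to 214 in PW_Res. Most of it was CD79A, at 160 to 201 FPKM in PW_Con and 157 to 209 FPKM in PW_Res. Of 5 germinal centre and follicle genes, CXCL13 and S1PR2 met the standard and were lower, at -3.55 and -1.08, the other 3 lying at -0.44 to 0.53. CXCL13 was 6.14 to 28.5 FPKM in PW_Con and 0.0710 to 1.25 FPKM in PW_Res, and without PW_Con replicate 2 it was at -3.28 with a P of 0.00180, while S1PR2 was at -0.67 with a P of 0.0878. The summed level of that list was 20.4 to 51.1 FPKM in PW_Con and 10.5 to 19.5 FPKM in PW_Res. The part of these cell types in the class II values was not tested.

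Of 16 further class II pathway genes tested, 10 were below 0 in PW_Res, a share near the 58.8% of all genes, and 3 of them had a P under 0.05, against 6.77% of all genes. SLA-DOA, a chain of the DO molecule that restrains DM, was 6.60 to 9.21 FPKM in PW_Con and 3.15 to 4.72 FPKM in PW_Res, a log2 fold change of -0.80. IFI30 was 93.3 to 110 FPKM in PW_Con and 45.5 to 73.8 FPKM in PW_Res, a log2 fold change of -0.79. CTSS was 27.6 to 36.5 FPKM in PW_Con and 18.8 to 21.8 FPKM in PW_Res, a log2 fold change of -0.60. All 3 had an adjusted p of 0.377 to 0.394 in limma. The list as a whole had a median of -0.10, near that of all genes. On the class I side, 1 of 14 passed, the chaperone PDIA3, at -0.54. These 4 genes kept a P under 0.05 without PW_Con replicate 2, at -0.74 to -0.64. Over the 13 alternative settings, PDIA3 had such a P in 5, and SLA-DOA, IFI30 and CTSS in 12 each.

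Among the 11 interferon gamma signalling genes tested, 9 were below 0 in PW_Res, 7 had a P under 0.05, all lower, and 4 met the standard. Over all genes these shares were 58.8%, 6.77% and 1.81%. IRF1, a transcription factor induced by interferon gamma, was 85.0 to 105 FPKM in PW_Con and 28.4 to 48.1 FPKM in PW_Res, a log2 fold change of -1.41 (SE 0.23, adjusted p = 0.195 in limma). GBP1 was 169 to 210 FPKM in PW_Con and 49.0 to 90.7 FPKM in PW_Res, a log2 fold change of -1.53 (SE 0.26, adjusted p = 0.198 in limma). IFNG was 1.03 to 1.34 FPKM in PW_Con and 0.0424 to 0.277 FPKM in PW_Res. CXCL9, a chemokine that draws T cells, was 1.38 to 11.3 FPKM in PW_Con and 0.231 to 0.451 FPKM in PW_Res. The other genes were CXCL10, CXCL11 and IDO1. The count of 7 was 5 to 8 without single libraries and 3 in the Ballgown-type model. Of the 6 costimulation genes, CD40 and CD80 were lower at a P under 0.05, at -0.97 and -0.60. Without PW_Con replicate 2, 5 of the 7 interferon gamma signalling genes and CD40 kept such a P, with IRF1 and GBP1 both at -1.50, while CXCL10, CXCL11 and CD80 passed above 0.05, at -0.91, -0.67 and -0.42. All 8 T cell markers tested were below 0 in PW_Res (median -0.56), but only 1, CD3G at -0.92, had a P under 0.05. Without PW_Con replicate 2 the T cell markers had a median of -0.27, with all 8 below 0. Their summed level was 81.8 to 139 FPKM in PW_Con and 34.8 to 89.4 FPKM in PW_Res, and the part of T cells in these values was not tested.

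**Figure D4:**
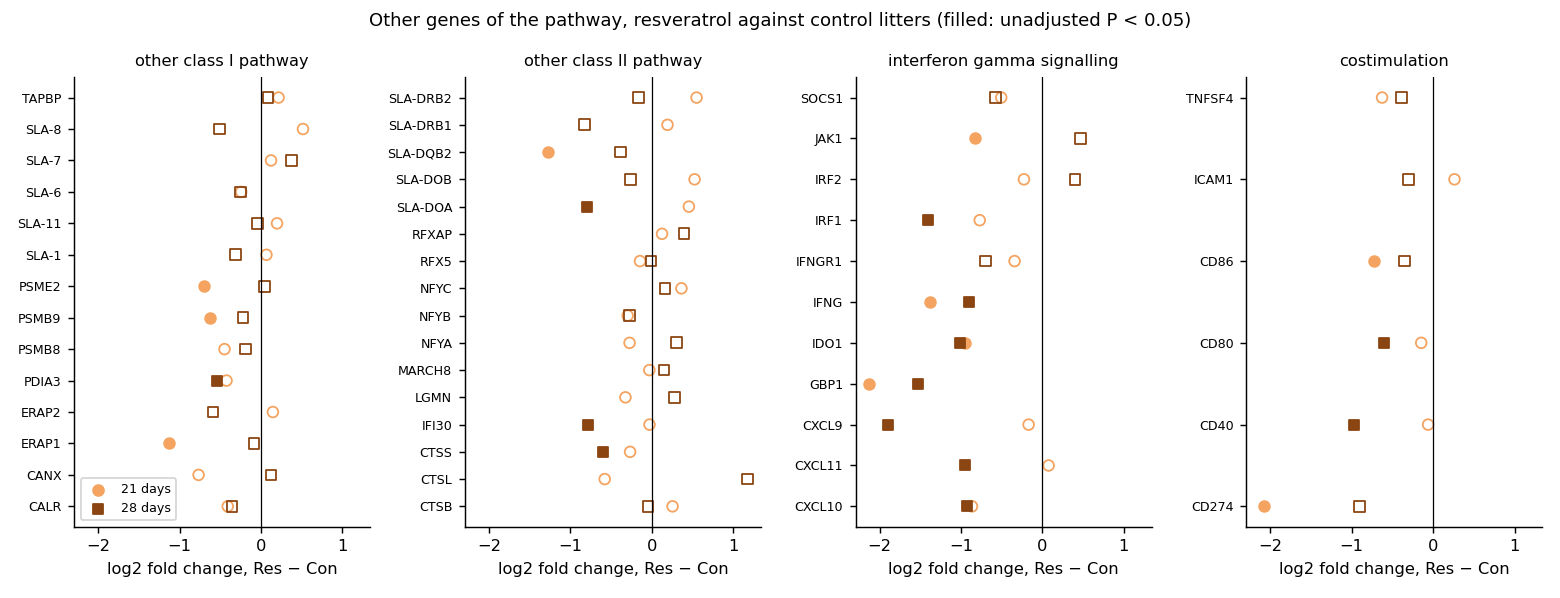
Log2 fold changes of resveratrol against control litters for the other genes of the pathway in 4 lists, with circles for 21 days, squares for 28 days and filled symbols for an unadjusted P under 0.05. In interferon gamma signalling, 4 genes are filled at 21 days and 7 at 28 days, all below 0.

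Of the genes outside the list, those closest in pattern were sought over the 12 libraries among 11427 genes with a mean of at least 1 FPKM. For the class II level they were HLA-DMA (r of 0.92), FXYD6, MYO1F, ZNF740 and PLEKHO2, the last at 0.91. For the class I level they were CLRN3 (r of 0.94), WARS, SYNE3, CD8A and STAT2, the last at 0.90. These r values are descriptions over 12 libraries in 4 groups.

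The rows SLA-DQA, HLA-DMA and ENSSSCG00000025593 were looked at after the values were seen, because they carry other names of genes on the list or near it. SLA-DQA is given by RefSeq as a synonym of SLA-DQA1 in the assembly Sscrofa11.1. It was 710, 553 and 233 FPKM in W_Con, 590, 617 and 321 FPKM in PW_Con, 335, 1062 and 341 FPKM in W_Res, and 374, 269 and 375 FPKM in PW_Res. Its highest library was W_Res replicate 2, as for SLA-DRA, and its PW_Con and PW_Res ranges overlapped. HLA-DMA, named like the human DM alpha chain, was 34.2 to 62.2 FPKM in PW_Con and 22.1 to 27.4 FPKM in PW_Res, without overlap, a log2 fold change of -0.82 (SE 0.25, unadjusted P = 0.0130, adjusted p = 0.394 in limma). ENSSSCG00000025593, whose current Ensembl symbol is TAP2, had an r of 0.99 with the TAP2 row and was 37.6 to 79.0 FPKM. In the order of genes on Sscrofa11.1, SLA-DRA, SLA-DQA1, SLA-DQB1, TAP2, TAP1, SLA-DMB and SLA-DMA follow each other in this order along the MHC, with the TAP genes of class I between class II genes.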

How the data were processed

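RNA-seq of jejunum from 12 piglets was analysed. The authors deposited FPKM per locus, estimated with StringTie and Ballgown; no further scaling is stated. The study's methods name TopHat for alignment, and the submitters' processing notes name HISAT2 2.0, StringTie 1.3.0 and Bowtie 0.12.2. Rows without a gene name (17650 of 41264) were left out, and rows of the same name were summed.

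Gene sums on the log2(FPKM + 1) scale were fitted in limma 3.58.1 under R 4.3.3 (lmFit, then eBayes with a trend), keeping genes whose mean FPKM over the fitted libraries reached 0.5. Fold changes on this scale understate those of low genes. Calls followed the study's standard, an unadjusted P under 0.05 and an absolute log2 fold change above 1, with Benjamini-Hochberg adjusted p-values over all genes. Each comparison used its 6 libraries, and the difference between litters used all 12. On simulated data with 200 of 12426 genes changed by 2 on the log2 scale in the control litter comparison, more than any difference of the 7 genes, 197 were recovered and 0 had the wrong sign.

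The genes and lists were chosen with earlier results of these data known. Of 138 further list genes, 104 were matched, some by the current symbol of an Ensembl identifier (JAK1, BATF3, CD22, ITGAM, CLRN3), and some genes of these pathways and cell types are not reported here. Every gene of the list was described, with a log2 fold change, SE and P of its own where P was under 0.05, and other pathway genes were named under the same limit. The 5 genes with the highest r to each class level were named. Alternatives were a pseudocount of 0.1, no filter, median-of-ratios scaling, a replicate block, the highest row in place of the sum, a Ballgown-type model (library-size covariate from values below the 75th percentile), a single fit of all 12 libraries, leaving out each replicate, and, chosen after seeing the data, TAP2 summed with ENSSSCG00000025593. Sequences were not used here, and of genome positions only the order of genes on Sscrofa11.1 was used.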

Additional observations from a re-analysis of the deposited data

Results flagged for a closer look

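The weaning effect differed between resveratrol and control litters at an unadjusted P under 0.05 (limma, 12 libraries, 3 per group) for 6 further genes of the pathway lists, and for none of the 7 genes of the list itself. Their adjusted p was 0.277 to 0.356, so none held over all genes, 13.7% of which had such a P. Of 14 class I pathway genes tested, 1 was higher and 1 lower at that level. Of 16 class II pathway genes 2 were lower, of 11 interferon gamma signalling genes 1, and of 6 costimulation genes 1. The share over these lists together was not above that of all genes. On the log2 scale, the effect in resveratrol litters minus that in control litters was -1.02 for SLA-8, 1.05 for ERAP1, -1.25 for SLA-DOA, -0.76 for IFI30, -1.73 for CXCL9 and -0.91 for CD40. Each kept its sign in all 18 alternative settings, with SLA-DOA nearest to 0, at -0.05 in the Ballgown-type model. The P stayed under 0.05 in 17 of them for SLA-8, 14 for CXCL9, 9 for IFI30, 8 for ERAP1, 7 for CD40 and 5 for SLA-DOA. The P without PW_Con replicate 2 was 0.101 for ERAP1, 0.0951 for SLA-DOA, 0.0794 for IFI30 and 0.118 for CD40 (limma). That without W_Res replicate 2 was 0.117 for ERAP1, 0.119 for SLA-DOA and 0.0650 for CD40, and without W_Res replicate 1 it was 0.0653 for SLA-DOA.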

How the results depend on the processing

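The number of the 7 genes that met the standard was 0 under each alternative in the weaning comparisons of control and of resveratrol litters. For the difference between litters it was 1 with the replicate block (SLA-DQB1) and 0 to 1 without single replicates, the 1 being SLA-DQB1 at -1.51 without W_Res replicate 3. At 21 days it was 1 in the Ballgown-type model (SLA-DQB1 at -1.27) and 0 to 2 without single replicates. At 28 days it was 0 in the Ballgown-type model, where SLA-DQB1 was at -0.81 (adjusted p = 0.788) and CIITA at -0.69 (adjusted p = 0.732) in this limma-fitted model without moderation, and 0 to 2 without single replicates. SLA-DQB1 and CIITA at 28 days kept an unadjusted P under 0.05 in each of the 13 other alternatives, with adjusted p-values in limma of at least 0.239. In resveratrol litters, SOCS1 was at -0.32 in the Ballgown-type model. The causes of these changes were not tested. TAP2 in resveratrol litters had a P of 0.0459 when summed with ENSSSCG00000025593, an alternative chosen after seeing the data. Over 13 alternative settings in these litters, TAP2 had a P under 0.05 in 4, and TAP1 and CIITA in 1 each.

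Deviations of same-numbered libraries from their group means had r of -0.257 to 0.109. The labels do not tie replicate numbers to litters, and the numbers were not read as pairs. The study's methods took 1 male piglet from each litter at each age, so littermates may link the ages. Deviations from means of 3 libraries cannot exclude such pairing. With the replicate block, the genes with a P under 0.05 numbered 1 of 7 in control weaning, 3 for the difference between litters (SLA-DQB1, SLA-DMB and CIITA), 1 at 21 days and 2 at 28 days.

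Over all genes, those that met the standard rose from 418, 618, 590 and 224 to 853, 1163, 1008 and 488 with a pseudocount of 0.1 (control weaning, resveratrol weaning, 21 days, 28 days), and fell in the Ballgown-type model to 257 in resveratrol weaning, 201 at 21 days and, from 1000, to 318 for the difference. Leaving out W_Res replicates 1, 2 and 3 gave 1049, 388 and 928 in resveratrol weaning, and leaving out replicates 1 and 3 gave 896 and 944 at 21 days. The count was 633 for the difference without W_Con replicate 3, and 426 at 28 days without PW_Res replicate 1. Median-of-ratios scaling moved the median of all genes from -0.16 to 0.01 in resveratrol weaning and from -0.15 to 0.003 for the difference. It moved the share of calls that were higher from 20.9% to 44.6%, from 23.3% to 42.9%, from 66.8% to 55.6% at 21 days and from 47.3% to 61.1% at 28 days. In the Ballgown-type model these shares were 49.4%, 57.2%, 32.8% and 58.4% in the same order. An adjusted p under 0.05 was reached by 0, 1, 0, 0 and 1 genes in the 5 comparisons in limma. With 3 libraries a group and FPKM without counts, depth behind single genes could not be weighed.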
